A study of Mus musculus with 4 samples.

Results

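Ribosome biogenesis factors are the proteins that transcribe, modify, cut, fold and export the RNAs of the ribosome. A list of 50 of them, chosen by gene name with earlier results of these data known, was followed in mouse embryonic fibroblasts. The cells were treated with siRNA against Xpo5, the gene of Exportin-5, which carries precursor microRNAs out of the nucleus. For each gene the probe with the highest mean log2 processed signal was used. All 50 had such a probe well above background on all 4 arrays, out of 13923 genes tested.

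The Xpo5 siRNA group and the negative control siRNA group held 2 samples each, all of them wild-type primary fibroblasts of the C57BL/6 strain. Every sample received 60 nM of its siRNA for 12 h, was kept in 0.2% serum for 48 h and then in 20% serum for 24 h with another dose of the same siRNA. By their labels the groups differ in the siRNA alone and show cells that had just been returned to serum after quiescence, with Xpo5 lowered and not deleted. Nothing in the labels tells whether the cultures came from separate embryos, and the p values therefore measure only the spread between these samples.

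Ribosome assembly begins in the nucleolus, where RNA polymerase I transcribes a long precursor from the ribosomal DNA. Small nucleolar ribonucleoproteins (snoRNPs) guide methylation and pseudouridylation of that precursor, and separate sets of factors cut and fold it into the small and the large subunit. Growing cells make many ribosomes, serum drives their production in fibroblasts, and many of these genes are known targets of the transcription factor MYC.

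Each sample was run on a 1-colour array of its own, on which 62.4% to 65.0% of the non-control spots were well above background and 0 were saturated. Levels are log2 processed signals less the log2 75th percentile of their array, and differences are Xpo5 siRNA minus control siRNA on that log2 scale. Paired values are always those of replicate 1 and then replicate 2, and the replicate numbers were read as the 2 experiments of the series. Each of the 2 slides held 1 array of each siRNA with opposite replicate numbers, so a gap between the experiments in the effect of the siRNA cannot be told apart from the slide.

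The targeted gene was checked first. Xpo5 read -2.03 and -2.02 with Xpo5 siRNA, against 1.22 and 1.17 with control siRNA. It fell by 3.21 ± 0.12 (SE, limma adjusted p = 0.0111), so that 10.8% of the control level remained. The limma adjusted p was 0.0771 with replicate 1 of Xpo5 siRNA left out and 0.0531 with replicate 2 left out, at differences of -3.21 and -3.22. It was also above the threshold with normexp background correction, at a difference of -2.03 (limma adjusted p = 0.604). Without the spots of uneven background that correction gave -2.80 (limma adjusted p = 0.000532). The adjusted p was above the threshold as well with the mean of the probes, at -2.54 (limma adjusted p = 0.156), and without the filter on dim probes (limma adjusted p = 0.17). The probe lies at chr17:46378755-46378814 of the mm9 build, and further probes differed by -3.07 and -1.33, while the last of its 4 probes was well above background on 1 array only.

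Most of the listed ribosome biogenesis factors read modestly lower with Xpo5 siRNA. The shares below describe a list chosen with earlier results of these data known and are not a test. The median difference of the 50 members was -0.20, or -12.7% relative to the control signal, against 0.020 over all genes tested. Of the members 44 read lower, or 88.0%, where 47.0% of all genes did. In both experiments 38 members read lower, or 76.0%, against 33.3% of all genes. For 29 members, or 58.0%, both Xpo5 siRNA arrays lay below both control siRNA arrays, against 21.6% of all genes. The opposite arrangement was seen for 0 members, against 26.0% of all genes.

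No single member passed the test. In limma 0 of 50 had an adjusted p under 0.05, against 0.0215% of all genes, and the smallest was 0.21, for Lyar. With the replicate number as a block 0 of 50 passed, against 4.44% of all genes, and the smallest adjusted p was 0.0607, for Nop16. At an unadjusted limma p under 0.05, 7 members read lower, or 14.0%, against 5.33% of all genes, and 0 read higher, against 9.39%. That count was 13 with the replicate block, against a background of 11.3%, and 1 where the slide was the block, against 2.66%. With Xpo5 siRNA replicate 1 left out it was 2, against 3.4% of all genes, and with replicate 2 left out 1, against 1.75%. With control siRNA replicate 1 left out it was 3, against 4.02%, and with replicate 2 left out 8, against 7.7%.

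The lower values were present in both experiments and on both slides. The median over the members was -0.20 in replicate 1 and -0.19 in replicate 2, with 41 and 45 members lower. Within slide 1 it was -0.16 and within slide 2 -0.22, with 43 and 39 members lower. Over all 13923 genes tested the medians were 0.0062 and 0.031 in the replicates, with 6831 and 6364 genes lower. Within the slides the medians of all genes were 0.0623 and -0.0335, with 5778 and 7399 genes lower. Across the 50 members the differences of the 2 experiments had a Pearson correlation of 0.552, against 0.581 across 13915 genes, as a description of points that share the same 4 arrays. Scaling each array to its median moved the median of all genes to -0.093 and that of the members to -0.31. That scaling shifts all genes of an array alike and leaves the gap to the median of all genes at -0.22, with 46 of the 50 members below it. Quantile normalization gave a gap of -0.18, and 37 members lay below the median of all genes without replicate 2 of control siRNA.

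**Figure D1:**
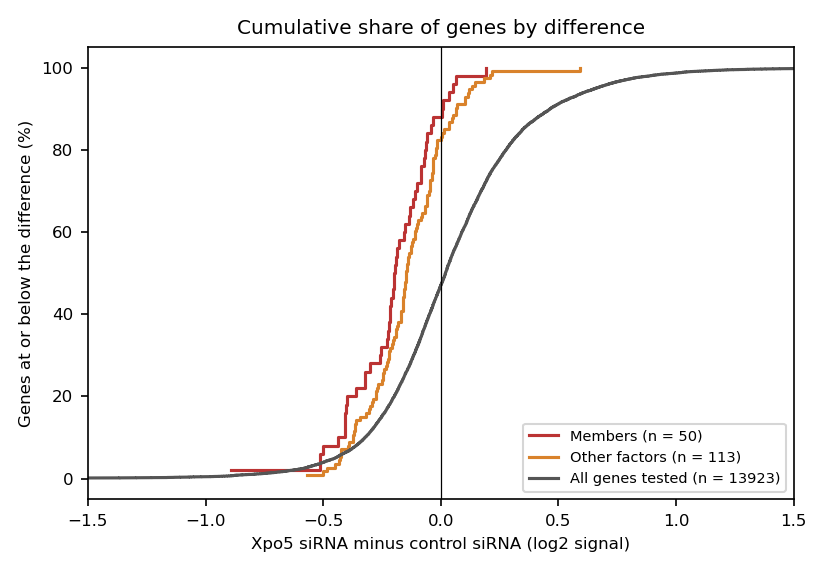
Cumulative share of genes (y axis, percent) at or below each log2 difference of Xpo5 siRNA minus control siRNA (x axis), for the 50 members, 113 other factors of ribosome production and all 13923 genes tested. At a difference of 0 the curve of the members stands at 88.0%, that of the other factors at 83.2% and that of all genes at 47.0%.

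**Figure D2:**
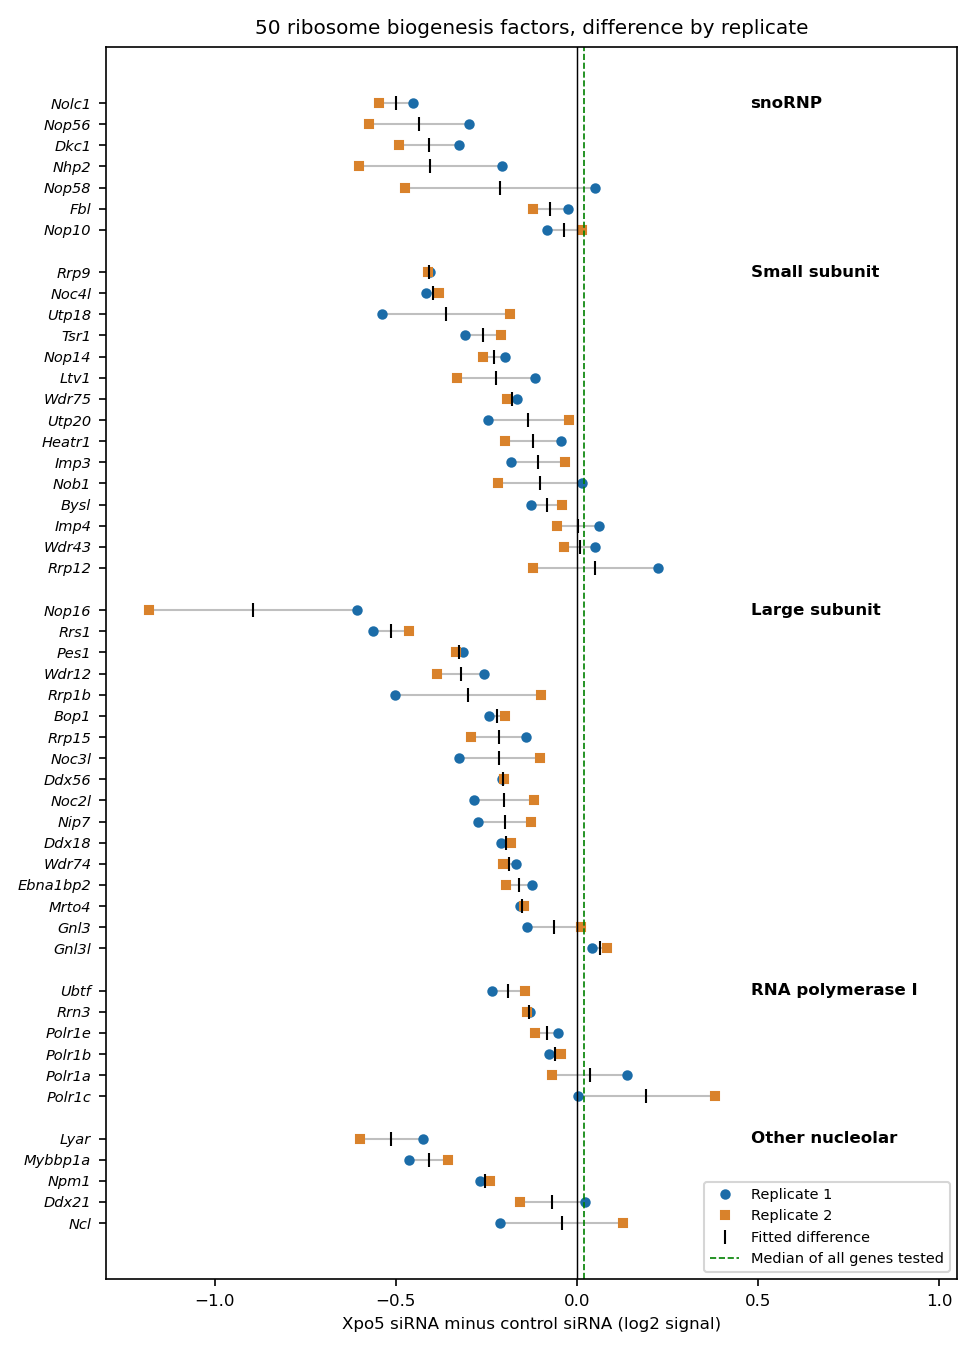
Log2 difference of Xpo5 siRNA minus control siRNA (x axis) for each of the 50 members, sorted within role groups (y axis), with replicate 1 as circles, replicate 2 as squares, the fitted difference as a tick and the median of all genes as a dashed line. In 38 members both points lie left of 0, and Nop16 stands farthest left at -0.89.

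Markers of other cells and of the cell cycle were read in the same arrays. All 12 fibroblast markers, among them Col1a1, Pdgfra and Thy1, were well above background on every array, with summed signals of 2230 to 2370 times the 75th percentile with Xpo5 siRNA and 1880 to 2060 with control siRNA. All 15 macrophage markers were also above background on every array and read higher with Xpo5 siRNA, at a median difference of 0.67, with sums of 68.7 to 80.8 with Xpo5 siRNA and 40.5 to 57.0 with control siRNA. Genes of the G1 and S phases, among them cyclins and genes of DNA replication, read lower in 19 of 20 cases, at a median of -0.44. Their sums were 188 to 212 with Xpo5 siRNA and 263 to 266 with control siRNA. Genes of the G2 phase and mitosis read lower in 20 of 20, at a median of -0.35. Their sums were 236 to 272 with Xpo5 siRNA and 318 to 336 with control siRNA. In limma 0 genes of these lists passed at an adjusted p, and their part in the values of the ribosome factors was not tested. Fewer cells of a type and less RNA per cell cannot be told apart in such bulk samples. Of the endothelial list 3 of 6 markers were above background on every array and all 3 read higher, at a median of 0.74, with sums of 0.513 to 0.624 with Xpo5 siRNA and 0.265 to 0.300 with control siRNA, while Pecam1, Cdh5 and Tie1 were above background on no array. The neural list had 7 of 8 on every array and Gfap on none, with sums of 18.3 to 18.9 with Xpo5 siRNA and 23.3 to 23.9 with control siRNA. Of the 7 tested, 5 read higher and 2 lower, at a median of 0.17, so most did not share the fall of the sum. The epithelial list had 3 of 6 on every array and Epcam and Cdh1 on none, with sums of 8.31 to 8.65 with Xpo5 siRNA and 7.35 to 8.30 with control siRNA. Of the 3 tested, 2 read higher and 1 lower, at a median of 0.0039. The muscle list had 3 of 7 on every array and Myod1, Myog and Myh3 on none, with sums of 18.0 to 22.7 with Xpo5 siRNA and 15.9 to 20.6 with control siRNA. Of the 4 tested, 3 read higher and 1 lower, at a median of 0.21.

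Among the role groups, the snoRNP genes had the lowest median and the RNA polymerase I genes the one nearest 0. The median difference was -0.40 over 7 snoRNP genes, -0.20 over 17 large subunit genes, -0.13 over 15 small subunit genes and -0.071 over 6 RNA polymerase I genes. A further 5 nucleolar proteins with broader roles had a median of -0.25. Lower values were seen in 7 of 7 snoRNP genes, 16 of 17 large subunit genes, 12 of 15 small subunit genes, 4 of 6 RNA polymerase I genes and 5 of 5 of the others. Of all genes 47.0% read lower. The groups are few genes sorted by function, and the gaps between their medians were not tested.

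The order of the groups was not the same in both experiments. In replicate 1 the medians were -0.24 for the large subunit, -0.21 for snoRNPs, -0.16 for the small subunit and -0.064 for RNA polymerase I. In replicate 2 they were -0.49 for snoRNPs, -0.19 for the large subunit, -0.19 for the small subunit and -0.091 for RNA polymerase I. The lowest place of the snoRNP genes was thus that of replicate 2, while RNA polymerase I stood nearest 0 in both. Without replicate 2 of Xpo5 siRNA the snoRNP median was -0.20 and the small subunit median -0.22. The RNA polymerase I median turned to 0.0038 with replicate 1 of Xpo5 siRNA left out and to 0.011 with replicate 2 of control siRNA left out, so its direction rested on single arrays. Within slide 1 the snoRNP and RNA polymerase I medians were -0.14 and -0.11, and within slide 2 they were -0.38 and 0.086. The median of all genes was 0.0623 within slide 1 and -0.0335 within slide 2.

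**Figure D3:**
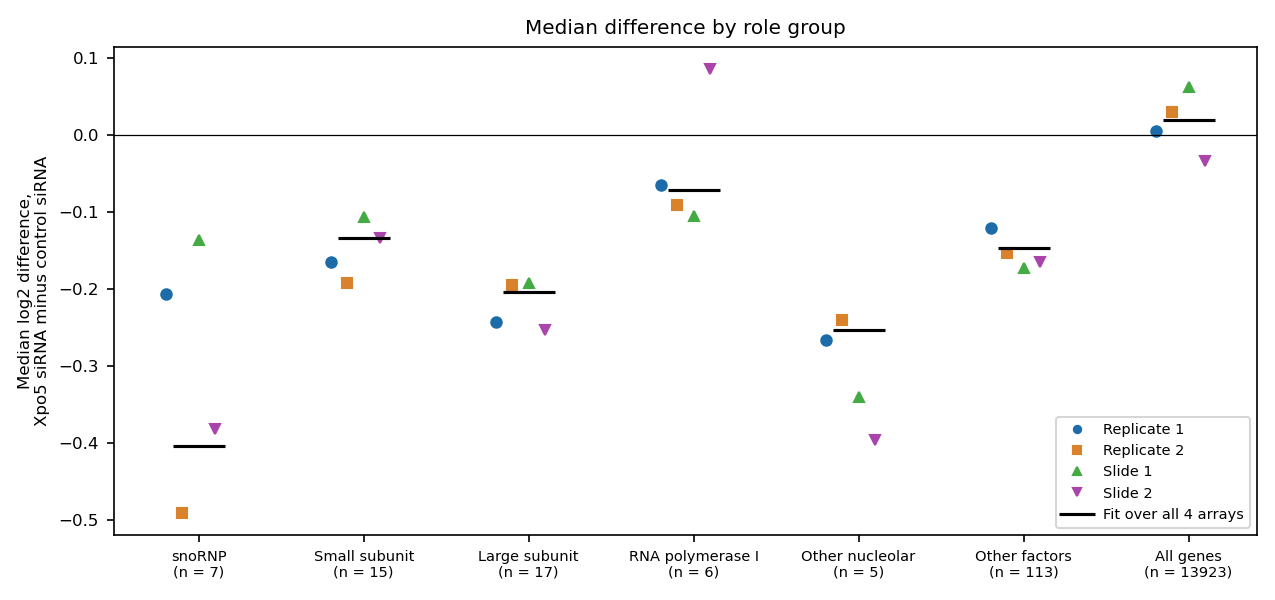
Median log2 difference of Xpo5 siRNA minus control siRNA (y axis) in each role group of the members, in the other factors and in all genes tested (x axis), from the fit over 4 arrays, from each replicate number and from each slide. The large subunit medians stay between -0.25 and -0.19, the snoRNP medians spread from -0.49 to -0.14 and the RNA polymerase I medians lie between -0.11 and 0.086.

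Of the snoRNP genes 4 of 7 differed by -0.40 or lower. Box C/D particles guide methylation and are built on fibrillarin, Nop56 and Nop58, and box H/ACA particles guide pseudouridylation and hold dyskerin, Nhp2 and Nop10. Nop56, a box C/D core protein, read 4.75 and 4.67 with Xpo5 siRNA, against 5.05 and 5.24 with control siRNA. Its groups did not overlap, and the difference was -0.44 ± 0.14 (SE, limma unadjusted p = 0.0264, adjusted p = 0.275). Its other probe differed by -0.36.

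The partners of Nop56 in the box C/D particle differed less. Nop58, its paralogue, read 3.95 and 3.85 with Xpo5 siRNA, against 3.90 and 4.33 with control siRNA, so that the groups overlapped and only replicate 2 had the lower value with Xpo5 siRNA. Its difference was -0.21 ± 0.19, and 0.0025 without replicate 2 of control siRNA. Fbl, which encodes the methyltransferase fibrillarin, read 6.26 and 6.21 with Xpo5 siRNA, against 6.29 and 6.33 with control siRNA. The groups lay close together without overlap, and the difference of -0.073 had a 95% interval of -0.39 to 0.25.

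In the box H/ACA particle, Dkc1, the gene of the pseudouridine synthase dyskerin, read -0.35 and -0.71 with Xpo5 siRNA, against -0.028 and -0.22 with control siRNA. The core protein gene Nhp2 read 3.90 and 3.64 with Xpo5 siRNA, against 4.10 and 4.24 with control siRNA. Neither gene's groups overlapped, where 21.6% of all genes read lower without overlap. The difference was -0.41 ± 0.18 for Dkc1 (limma unadjusted p = 0.0694) and -0.40 ± 0.15 for Nhp2 (limma unadjusted p = 0.0469), with adjusted p values of 0.379 and 0.332. A second probe of Dkc1 differed by -0.21, with overlapping groups. Nop10, the small core protein, differed by -0.034, with overlapping groups.

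Nolc1, a chaperone that shuttles between the nucleolus and Cajal bodies and binds snoRNPs, had the lowest difference of the snoRNP genes, at -0.50 ± 0.27. It read 1.89 and 1.30 with Xpo5 siRNA, against 2.34 and 1.85 with control siRNA. The groups overlapped because replicate 1 stood above replicate 2 with either siRNA, and within the experiments the differences were -0.45 and -0.55. The limma adjusted p was 0.0671 with the replicate block and 0.466 without it. Within slide 1 the difference was 0.044 and within slide 2 -1.04. A second probe of Nolc1 read -0.58 and -0.57 with Xpo5 siRNA, against -0.20 and -0.32 with control siRNA. It differed by -0.31, and its groups did not overlap.

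Small subunit factors work in the processome, a large particle that forms on the new precursor around the U3 snoRNP, and later in the maturation and export of the small subunit. Rrp9, a protein of the U3 snoRNP, read 1.82 and 1.77 with Xpo5 siRNA, against 2.22 and 2.18 with control siRNA. Its groups did not overlap and the differences of the experiments were -0.41 and -0.41. The fitted difference was -0.41 ± 0.13 (SE, limma unadjusted p = 0.0221, adjusted p = 0.255), and -0.36 and -0.45 within the slides.

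A further 3 small subunit genes followed Rrp9 in p. Noc4l, whose yeast relative works with Nop14 in the processome, read 1.58 and 1.30 with Xpo5 siRNA, against 1.99 and 1.68 with control siRNA. Utp18, a processome protein, read 0.19 and 0.11 with Xpo5 siRNA, against 0.73 and 0.29 with control siRNA. Tsr1, a GTPase-like factor of late small subunit maturation, read 1.94 and 1.86 with Xpo5 siRNA, against 2.25 and 2.07 with control siRNA. In each gene both Xpo5 siRNA arrays lay below both control siRNA arrays, which the choice by p favours, against 21.6% of all genes. The differences were -0.40 ± 0.18 for Noc4l, -0.36 ± 0.19 for Utp18 and -0.26 ± 0.14 for Tsr1, with limma adjusted p values of 0.4, 0.45 and 0.456. A second probe of Tsr1 differed by 0.072.

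The remaining small subunit genes with negative differences lay between -0.23 for Nop14 and -0.083 for Bysl. Among them Ltv1 differed by -0.22, Wdr75 by -0.18, Utp20 by -0.13, Heatr1 by -0.12, the U3-associated Imp3 by -0.11 and Nob1, the nuclease that makes the final cut of the small subunit RNA, by -0.10. The groups of Ltv1, Utp20, Heatr1 and Bysl did not overlap, and those of the others did. Of all genes 21.6% read lower without overlap. For Heatr1 and Bysl the further probes had the opposite sign, at 0.56 and 0.29 for Heatr1 and 0.17 and 0.34 for Bysl.

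Positive differences were seen in 3 small subunit genes, all with overlapping groups. Rrp12, whose yeast relative takes part in subunit export, read -1.43 and -0.85 with Xpo5 siRNA, against -1.65 and -0.73 with control siRNA. Wdr43, a processome protein, read 1.46 and 1.41 with Xpo5 siRNA, against 1.41 and 1.44 with control siRNA. Imp4, which binds U3 as Imp3 does, read -3.05 and -2.75 with Xpo5 siRNA, against -3.11 and -2.70 with control siRNA. The experiments of Rrp12 and Imp4 lay further apart than the siRNAs, while all 4 values of Wdr43 lay close together. The differences were 0.051 ± 0.36 for Rrp12, 0.0087 ± 0.13 for Wdr43 and 0.0044 ± 0.20 for Imp4. With median scaling they were -0.062, -0.10 and -0.11.

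Large subunit factors were lower in both experiments in 15 of 17 cases, against a background of 33.3%, and without overlap in 13, against 21.6%. Nop16, a nucleolar protein of the large subunit precursor whose human gene is a MYC target, had the lowest difference of the 50 members. It read 1.31 and 1.42 with Xpo5 siRNA, against 1.92 and 2.60 with control siRNA. The groups did not overlap, and the control arrays stood apart from each other by 0.68. The difference was -0.89 ± 0.25 (SE, limma unadjusted p = 0.0158, adjusted p = 0.228), with a 95% interval of -1.53 to -0.25, and the signal stood at 53.8% of control. It was -0.61 in replicate 1 and -1.18 in replicate 2, and -0.55 without replicate 2 of control siRNA.

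A second probe of Nop16 gave a like difference with closer replicates. It read -1.51 and -1.54 with Xpo5 siRNA, against -0.69 and -0.64 with control siRNA, a difference of -0.86 ± 0.14. The probes lie at chr13:54686644-54686703 and chr13:54685557-54685616 of mm9.

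Rrs1, whose yeast relative helps to bring the 5S particle into the large subunit, read 1.98 and 1.80 with Xpo5 siRNA, against 2.54 and 2.27 with control siRNA. The groups did not overlap, and the difference was -0.51 ± 0.16 (SE, limma unadjusted p = 0.0243, adjusted p = 0.266). The experiments gave -0.56 and -0.46.

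Pes1, Bop1 and Wdr12 form a complex that is needed for the maturation of large subunit RNA. All 3 read lower in both experiments, against 33.3% of all genes, and without overlap, against 21.6%. Pes1 read 3.13 and 2.97 with Xpo5 siRNA, against 3.44 and 3.30 with control siRNA. Wdr12 read 1.84 and 1.71 with Xpo5 siRNA, against 2.10 and 2.10 with control siRNA. The differences were -0.32 ± 0.14 for Pes1, -0.32 ± 0.13 for Wdr12 and -0.22 ± 0.13 for Bop1, with limma adjusted p values of 0.379, 0.357 and 0.483. The second probe of Pes1 differed by -0.0006, and the further probes of Wdr12 by -0.39 and 0.0082.

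The other large subunit genes lay in a narrow band, apart from the GTPase genes Gnl3 and Gnl3l. Rrp1b differed by -0.30, Rrp15 by -0.22, Noc3l by -0.21, the helicase gene Ddx56 by -0.20, Noc2l by -0.20, Nip7 by -0.20, the helicase gene Ddx18 by -0.19, Wdr74 by -0.19, Ebna1bp2 by -0.16 and Mrto4 by -0.15. Of these Rrp15 and Wdr74 had overlapping groups and the others did not. The further probes of Rrp1b differed by -0.52, -0.038 and -0.098, and the second probe of Noc2l by 0.018. Gnl3, the nucleostemin gene, differed by -0.14 in replicate 1 and 0.012 in replicate 2. Its relative Gnl3l was the large subunit gene with a positive difference, and read 1.89 and 1.83 with Xpo5 siRNA, against 1.84 and 1.75 with control siRNA. The groups overlapped, and the difference of 0.063 ± 0.13 was -0.050 with median scaling.

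**Figure D4:**
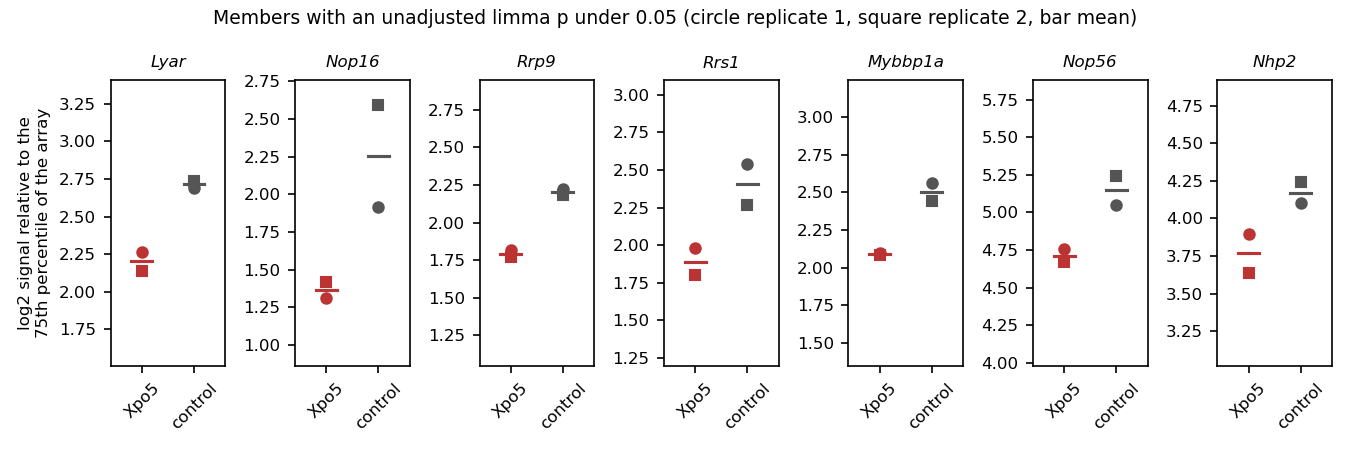
Log2 signal less the 75th percentile (y axis, equal spans) for the 7 members with an unadjusted limma p under 0.05, with Xpo5 siRNA left of control siRNA, replicate 1 as circles, replicate 2 as squares and the mean as a bar. In each panel both Xpo5 siRNA arrays lie below both control siRNA arrays, which the choice by p favours, against 21.6% of all genes. The widest mean gap is that of Nop16, at -0.89.

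The genes of RNA polymerase I transcription stood nearest to 0. Ubtf, which keeps ribosomal DNA open for transcription, read 2.11 and 2.04 with Xpo5 siRNA, against 2.34 and 2.19 with control siRNA. Rrn3, which links the polymerase to its promoter in growing cells, read 3.10 and 2.85 with Xpo5 siRNA, against 3.23 and 2.99 with control siRNA. Ubtf was the 1 gene of 6 whose groups did not overlap, against 21.6% of all genes. The differences were -0.19 ± 0.13 for Ubtf and -0.13 ± 0.17 for Rrn3, and for Rrn3 they were 0.12 within slide 1 and -0.38 within slide 2. Second probes differed by -0.14 for Ubtf and 0.0265 for Rrn3.

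Subunits of the polymerase differed in both directions, and all had overlapping groups. Polr1a, the largest catalytic subunit, read 2.59 and 2.65 with Xpo5 siRNA, against 2.45 and 2.71 with control siRNA. Polr1e, a subunit specific to this polymerase, read -0.38 and -0.25 with Xpo5 siRNA, against -0.33 and -0.13 with control siRNA. The differences were 0.036 for Polr1a, with a 95% interval of -0.35 to 0.42, -0.082 for Polr1e, with -0.45 to 0.29, and -0.060 for its catalytic partner subunit Polr1b, with -0.42 to 0.30. With median scaling Polr1a differed by -0.077.

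Polr1c, a subunit shared with RNA polymerase III, had the highest difference of the 50 members. It read 3.27 and 3.71 with Xpo5 siRNA, against 3.26 and 3.33 with control siRNA. The Xpo5 siRNA array of replicate 2 stood above the other arrays, and the groups overlapped. The difference was 0.19 ± 0.19 (limma unadjusted p = 0.355), or 0.0023 and 0.38 in the experiments, and -0.031 without replicate 2 of Xpo5 siRNA. Polr1c is the neighbour of Xpo5 on chromosome 17 by the RefSeq gene table of GRCm38. Its probe lies at chr17:46381120-46381264 of mm9 on the opposite strand, next to the Xpo5 probe at chr17:46379784-46379843, which differed by -3.07.

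Among the nucleolar proteins with broader roles, Lyar and Mybbp1a had the lowest differences. Lyar, a nucleolar zinc finger protein, read 2.27 and 2.14 with Xpo5 siRNA, against 2.69 and 2.74 with control siRNA. Mybbp1a, which binds the transcription factor MYB and takes part in ribosomal RNA synthesis, read 2.10 and 2.09 with Xpo5 siRNA, against 2.56 and 2.44 with control siRNA. The groups of neither gene overlapped, against 21.6% of all genes that read lower without overlap. Both were lower within each experiment and each slide. The difference was -0.51 ± 0.13 for Lyar (limma unadjusted p = 0.0112, adjusted p = 0.21) and -0.41 ± 0.13 for Mybbp1a (limma unadjusted p = 0.0251, adjusted p = 0.271), at 70.1% and 75.3% of control.

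Npm1, Ddx21 and Ncl had smaller differences. Npm1, the gene of the chaperone nucleophosmin, read 7.24 and 7.11 with Xpo5 siRNA, against 7.51 and 7.35 with control siRNA, without overlap. Ddx21, a helicase of ribosomal RNA synthesis and processing, read 1.88 and 1.85 with Xpo5 siRNA, against 1.86 and 2.01 with control siRNA, with overlap. The differences were -0.25 ± 0.14 for Npm1, whose second probe gave -0.42, and -0.067 ± 0.13 for Ddx21. Ncl, the nucleolin gene, differed by -0.21 in replicate 1 and 0.13 in replicate 2, while its 3 further probes gave -0.24, -0.33 and -0.16.

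Further probes of the same genes were read beside these values. Of the 50 members 24 had 1 probe on the array and 26 had several, and 22 had a further probe that passed the background filter. Of the 30 further probes 20 read lower with Xpo5 siRNA, and their median was -0.14. They had the sign of the chosen probe in 22 cases and the opposite sign in 8, and the median absolute gap to the chosen probe was 0.17.

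**Figure D5:**
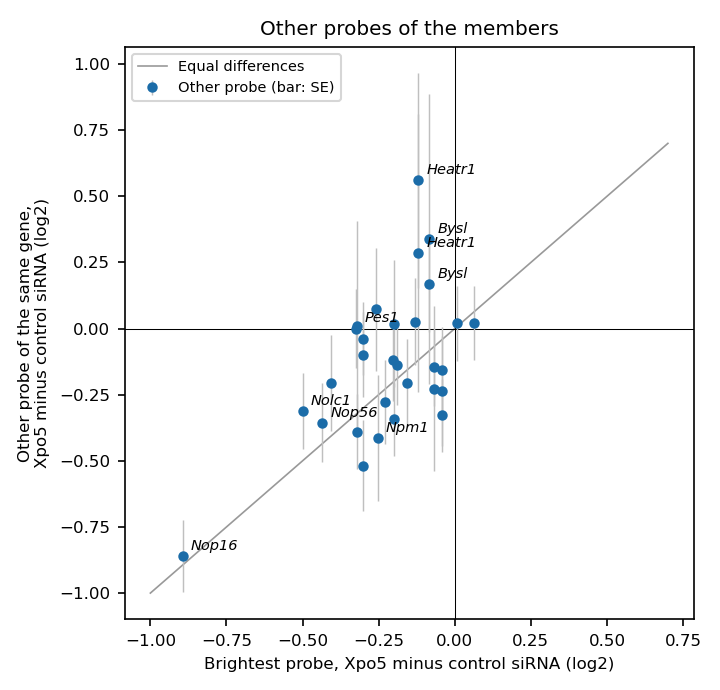
Log2 difference of Xpo5 siRNA minus control siRNA for the 30 further probes (y axis, bars are SE) against that of the chosen probe of the same gene (x axis), with a line of equal differences. Nop16 lies near the line at -0.89 and -0.86, while the further probes of Heatr1 and Bysl lie above 0.

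A wider list of 116 other factors of ribosome production, none of them a member, also read lower. Like the members it was chosen with earlier results of these data known, so its shares are no independent check. The filter kept 113, with a median of -0.15. Of these 94 read lower, or 83.2%, and 70 did so in both experiments, or 61.9%, against 47.0% and 33.3% of all genes. In limma 0 of 113 passed with or without the replicate block, at smallest adjusted p values of 0.0628 and 0.205, and 11 read lower at an unadjusted p under 0.05, or 9.73%, against 5.33%. By role the medians were -0.16 over 11 snoRNP factors, -0.16 over 41 small subunit factors, -0.13 over 42 large subunit factors, -0.16 over 7 RNA polymerase I factors and -0.20 over 12 genes of the exosome, which trims precursors. RNA polymerase I was thus not the group nearest 0 in the wider list.

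The genes with the smallest p in each role of that list were all lower in both experiments, which the choice by p favours. Over the whole list 61.9% were. The processome genes Mphosph10 and Dcaf13 differed by -0.57 ± 0.15 and -0.42 ± 0.13. Nop2, a methyltransferase of large subunit RNA, differed by -0.45 ± 0.14 and the helicase gene Ddx31 by -0.39 ± 0.13. Taf1d, part of a promoter factor of RNA polymerase I, differed by -0.50 ± 0.12, and Polr1d, which like Polr1c is shared with RNA polymerase III, by -0.49 ± 0.16. Ruvbl2, an assembly factor of snoRNPs, differed by -0.37, the box C/D protein gene Snu13 by -0.31, and the exosome genes Exosc10 and Exosc6 by -0.36 and -0.30. Their limma adjusted p values ranged from 0.205 to 0.413.

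Promoters of the members were read for the E-box CACGTG, the sequence that MYC and related factors bind. The windows run from 250 bases before to 50 bases after the start site, from RefSeq on GRCm38.p6, and 44 of the 50 members matched. The E-box, which reads the same on both strands, was in 9 of the 44, or 20.5%, against 11.2% of 11020 tested genes and 8.09% of 27025 genes with a window. In the wider list of other ribosome factors it was in 17 of 91, or 18.7%. It was in 6 of 14 small subunit genes, 1 of 14 large subunit genes, 1 of 6 RNA polymerase I genes, 1 of 4 other nucleolar genes and 0 of 6 snoRNP genes. The variant CACGCG, which does not overlap it and was read on both strands, was in 15 of 44, or 34.1%, against 19.1% of the tested genes and 31.9% of the other ribosome factors. A match describes letters in the window and not a bound site.

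The median difference was -0.22 over the 9 members with the E-box, in a range of -0.41 to 0.0087, and -0.19 over the 35 without it, in a range of -0.89 to 0.19. The 4 of the 9 with the smallest p are shown 5′ to 3′ on the strand of the gene, with the E-box in capitals, to show where the motif lies in members that read lower. Mybbp1a is at chr11:72441077-72441376 on the plus strand, Pes1 at chr11:3963725-3964024 on the plus strand, Utp18 at chr11:93885717-93886016 on the minus strand and Tsr1 at chr11:74897830-74898129 on the plus strand.
Mybbp1a: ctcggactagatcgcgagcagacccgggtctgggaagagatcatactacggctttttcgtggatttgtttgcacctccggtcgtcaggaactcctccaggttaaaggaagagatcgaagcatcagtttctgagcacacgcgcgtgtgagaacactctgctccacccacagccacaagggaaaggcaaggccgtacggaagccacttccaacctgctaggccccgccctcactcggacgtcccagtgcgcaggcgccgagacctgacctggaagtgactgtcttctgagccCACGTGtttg
Pes1: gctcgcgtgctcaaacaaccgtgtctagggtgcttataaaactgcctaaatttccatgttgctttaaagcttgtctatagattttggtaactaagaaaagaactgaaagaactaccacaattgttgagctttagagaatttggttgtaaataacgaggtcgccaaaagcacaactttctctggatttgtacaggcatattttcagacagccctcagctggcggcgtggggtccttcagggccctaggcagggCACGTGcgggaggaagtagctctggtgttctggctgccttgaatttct
Utp18: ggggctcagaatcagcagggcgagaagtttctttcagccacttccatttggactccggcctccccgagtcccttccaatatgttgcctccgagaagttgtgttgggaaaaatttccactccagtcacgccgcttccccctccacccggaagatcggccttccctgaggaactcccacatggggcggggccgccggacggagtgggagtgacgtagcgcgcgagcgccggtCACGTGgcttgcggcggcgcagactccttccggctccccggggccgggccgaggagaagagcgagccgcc
Tsr1: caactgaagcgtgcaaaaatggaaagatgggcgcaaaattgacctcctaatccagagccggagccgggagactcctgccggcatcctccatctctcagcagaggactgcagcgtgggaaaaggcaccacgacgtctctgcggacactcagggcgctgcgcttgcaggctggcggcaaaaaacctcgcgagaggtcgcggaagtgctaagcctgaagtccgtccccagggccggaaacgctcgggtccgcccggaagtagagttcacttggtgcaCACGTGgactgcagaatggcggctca
Counted from the start site, the motif begins at base 41 in Mybbp1a, at base 3 in Pes1, at base 25 in Tsr1 and at base -20 in Utp18. Wdr43 and Imp4 also hold it, at base 18 and at base -121, and differed by 0.0087 and 0.0044. The remaining members with the E-box, Ltv1, Utp20 and Rrn3, differed by -0.22, -0.13 and -0.13. The windows of Nop16 and Lyar do not hold these letters.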

How the data were processed

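Total RNA of 2 Xpo5 siRNA and 2 control siRNA samples was measured on 1-colour Agilent arrays. The deposited scanner files hold intensity values that, per the file headers, came from Agilent Feature Extraction 10.5.1.1, and the processed signal is corrected for background in them. The deposited log2 table held the same log2 values, shifted by 1 constant per array to a median of 5.33, with 99.7% to 99.8% of probes within 0.001, so it served as an alternative only.

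From the 43379 non-control spots per array, 77 to 134 outlier spots were left out, spots of a probe were averaged, and the log2 processed signal was set against the 75th percentile of the array. A probe was kept where both arrays of 1 or both groups had it well above background, 25643 in all, and each gene took its brightest probe, which gave 13923 genes. Probes were named by accession in 26682 cases, symbol in 5195 and synonym in 951, and 8346 had no name in the RefSeq gene table. Differences were fitted with limma 3.58.1 in R 4.3.3 (lmFit and eBayes, Benjamini-Hochberg over all genes, threshold 0.05, 95% intervals), and the procedure was tested on simulated data. With 2 samples per group the smallest exact permutation p is 0.333, and precision is limited by how few arrays there are.

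The members and lists were chosen with earlier results of these data known. Named genes were Xpo5, any member, and the 2 other factors with the smallest p per role. Values per array were given for the 4 smallest p in each role and for each positive difference. Same-numbered samples deviated together, with a correlation of 0.451 over 13915 genes, and the replicate block was an alternative beside other background corrections, scalings, filters, probe rules, slide blocks and left-out arrays.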

Additional observations from a re-analysis of the deposited data

How the results depend on the processing

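Results were recomputed under 16 other settings. Without a member passing in any of them, the lowest adjusted p of a member in limma was 0.0583, and 32 of the 50 members kept their sign in every setting that could turn it. Normexp background correction on the mean signals put Xpo5 at -2.03 (limma adjusted p = 0.604) and 0 members lower at an unadjusted p, against 0.0646% of all genes. It put the medians at -1.09 for the members, -0.73 for the small subunit, -1.08 for the large subunit, -1.44 for snoRNPs, -0.90 for RNA polymerase I, -1.14 for other nucleolar genes and -0.80 for the other factors. Non-control spots of uneven background numbered 23 and 34 with Xpo5 siRNA, and 12 and 0 with control siRNA. Without such spots the same correction put Xpo5 at -2.80 (limma adjusted p = 0.000532) and 11 members lower at an unadjusted p, against 6.59% of all genes. The medians were then -0.16 for the members, and -0.15, -0.24 and -0.13 for the small subunit, large subunit and other nucleolar genes. The large medians of plain normexp were thus not seen once these few spots were left out. Quantile normalization gave -0.18 for the members, -0.29 for other nucleolar genes and -0.12 for the other factors. Median scaling gave -0.31, -0.25, -0.32, -0.18, -0.37 and -0.26 for the members, small subunit, large subunit, RNA polymerase I, other nucleolar genes and other factors, and the deposited log2 table -0.32, -0.25, -0.32, -0.19, -0.37 and -0.27. Both scalings lower all genes, to medians of -0.093 and -0.099. The mean of the probes put Xpo5 at -2.54 (limma adjusted p = 0.156), the members at -0.18, the small subunit at -0.11 and other nucleolar genes at -0.33. Without the filter on dim probes Xpo5 stood at -3.21 with a limma adjusted p of 0.17, where 19885 genes were tested. The slide as a block left 1 member lower at an unadjusted p, against 2.66% of all genes, and the replicate block 13, against 11.3%. The replicate block moved the genes passing over the whole array to 618, against 3, and changed no other call named here. Genes passing numbered 8 with median scaling or the deposited table, 15 with normexp without uneven spots, 6 with the slide block, 57 and 83 without replicate 1 or 2 of control siRNA, 1 with the mean of the probes or a background filter on all 4 arrays, and 0 with plain normexp, no filter, or without replicate 1 of Xpo5 siRNA. Genes passing were 1 lower and 2 higher, against 5 lower of 8 with either scaling.

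Leaving out 1 array at a time put Xpo5 at -3.24 to -3.19, the members lower at an unadjusted p at 1 to 8, and the medians at -0.21 to -0.18 for the members, -0.22 to -0.13 for the small subunit, -0.26 to -0.18 for the large subunit, -0.48 to -0.20 for snoRNPs, -0.11 to 0.011 for RNA polymerase I, -0.33 to -0.18 for other nucleolar genes and -0.17 to -0.14 for the other factors. Members that took both signs ranged from -0.018 to 0.035 for Wdr43, -0.36 to 0.15 for Nob1, -0.22 to 0.090 for Gnl3, -0.14 to 0.023 for Polr1b, -0.30 to 0.22 for Ncl, -0.20 to 0.21 for Imp4, -0.41 to 0.51 for Rrp12, -0.031 to 0.42 for Polr1c, -0.098 to 0.17 for Polr1a, -0.43 to 0.0025 for Nop58, -0.18 to 0.016 for Polr1e and -0.14 to 0.0086 for Ddx21. Filters, blocks, the intensity trend and the names of the scanner files leave the difference of a member as it was, so only the other settings could turn a sign. Members took the opposite sign, with normexp, at -0.34 for Wdr43, 0.62 for Ltv1, -0.76 for Gnl3l, 0.17 for Noc3l, -1.08 for Polr1a, -1.07 for Polr1c and 0.087 for Polr1e, and without uneven spots -0.024 for Rrp12, -0.025 for Gnl3l, -0.061 for Polr1a and 0.0091 for Ubtf. Imp4 was -0.091 with quantile normalization, and Heatr1 0.24 and Bysl 0.14 with the mean of the probes. With median scaling and with the deposited table, Imp4 was -0.11 and -0.11, Wdr43 -0.10 and -0.11, Rrp12 -0.062 and -0.068, Gnl3l -0.050 and -0.056, and Polr1a -0.077 and -0.083. Where no construction shows it, the cause was not tested. The probes of all 50 members were well above background on all 4 arrays.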
